A study of Homo sapiens and Mus musculus with 18 samples.

Results

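Naïve human H9 ESCs were set against naïve mouse ESCs at the level of the transcript. The comparison used 4 of the 18 RNA-seq libraries of the series, which follows human RA-gastruloids and mouse gastruloids from naïve ESCs to late gastruloids. There were 2 biological replicates of naïve H9 ESCs, a human embryonic stem cell line, and 2 of naïve mouse ESCs of the E14Tg2a line. H9 cells had been chemically reset from the primed state and kept in PXGL, a medium with the MEK inhibitor PD0325901, the tankyrase inhibitor XAV939, a protein kinase C inhibitor and human LIF, on irradiated mouse embryonic fibroblast feeders that were then removed by passages on Geltrex. Mouse ESCs had been kept in 2iLIF, which holds the GSK3 inhibitor CHIR99021, PD0325901 and LIF, on poly-L-ornithine and laminin without feeders. Species, line, medium, feeder history and gene annotation differed together between the groups and cannot be told apart. Each group was 1 line, so that its replicates did not sample different embryos or genotypes. A gene entered the comparison if it was protein-coding and had a unique symbol that was the same in both species apart from letter case, which gave 15225 genes out of 18698 protein-coding human genes and 17432 protein-coding mouse genes. Primed H9 ESCs, grown in StemFlex on Geltrex, and mouse epiblast-like cells (EpiLCs), made from the naïve mouse ESCs by 2 days in Activin A, bFGF and serum replacement, with 2 replicates each, served for the naïve-to-primed difference within each species.

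Pluripotency is held by a small circuit of transcription factors around OCT4 (POU5F1), SOX2 and NANOG. The naïve state stands for the pre-implantation epiblast and the primed state for the epiblast after implantation. In mouse, naïve cells are sustained by LIF signalling through STAT3 and by WNT pathway activity, which act on factors such as ESRRB, TFCP2L1, KLF4 and KLF2, while FGF and ERK signalling drives the exit from that state. Human naïve cells also need ERK to be blocked, but are usually kept with WNT signalling held down, and are recognised by KLF17, SUSD2, DNMT3L and DPPA5. Naïve cells of either species are known for low DNA methylation.

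Library totals were 20444400 and 18774903 counts in naïve H9 and 7548807 and 11902627 in naïve mouse ESCs, of which the matched genes held 92.3% to 92.4% in naïve H9. Levels are given in TPM, a length-normalised abundance with the same total in every library, computed from counts and gene length over the matched genes alone and printed for replicate 1 and then replicate 2. The difference between species is a fitted log2 difference per unit of length, naïve H9 minus naïve mouse, from the quasi-likelihood test of edgeR, with p-values adjusted by the method of Benjamini and Hochberg over the 13929 genes tested. A gene was called where the adjusted p was under 0.05 and the absolute log2 difference above 1. For genes over 10 TPM, the log2 ratio of mean TPM runs 0.36 below the fitted difference (median, SD over genes 0.0080), so a ratio of printed TPM is not the fitted value. Of the genes tested, 4726 were called higher in naïve H9 (33.9%) and 3847 higher in naïve mouse ESCs (27.6%), with a median difference of 0.20. With at least 10 counts required in each naïve library the balance turned to the mouse side, with 2721 higher in naïve H9 and 2917 higher in naïve mouse. The shares over all genes tested are the background for every count below. A further 5356 genes were not called, and for 3244 genes the 95% interval of the difference lay wholly between -1 and 1. For 90.459% of genes tested the 2 libraries of one species did not overlap with those of the other, so that lack of overlap by itself singles out few genes. Replicates of a stage came from 1 batch of experiments. The p-values and SEs rest on the spread between such replicates, estimated jointly over the 9 groups of the 18 libraries. Each SE, and the 95% interval from it, was derived as the absolute difference over the square root of the test's F statistic. Where a large difference rests on few counts, such an SE can understate the counting error. Between replicates, the chi-square of counts per degree of freedom was 9.19 in naïve H9 and 2.45 in naïve mouse. It was 2.64 in primed H9 and 2.80 in EpiLCs. An SE or p-value that involves naïve H9 can thus understate the spread of its own replicates.

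Both groups carried the markers of the state they were labelled with. Summed over the 6 human naïve markers that could be matched (KLF17, SUSD2, DPPA3, DNMT3L, TFCP2L1 and KLF5), the level was 6831 and 7029 TPM in naïve H9, 721 and 691 in naïve mouse, and 17.2 and 19.3 in primed H9. The 8 mouse naïve markers (Klf2, Klf4, Esrrb, Tbx3, Tfcp2l1, Nr0b1, Zfp42 and Fgf4) summed to 4149 and 4177 TPM in naïve mouse ESCs against 501 and 504 in EpiLCs, and to 1378 and 1396 in naïve H9. KHDC3L and ALPG, human naïve markers with no mouse gene of that name, stood at 3113 and 3275 TPM and at 4525 and 4929 TPM over all human genes, and at under 1 TPM in primed H9. DPPA5, which also escaped the match because its mouse counterpart is named Dppa5a, reached 6582 and 6758 TPM in naïve H9 and 8305 and 8313 TPM in naïve mouse ESCs over all genes of each species. Markers of primed or formative cells (OTX2, FGF5, POU3F1, ZIC2, SFRP2, THY1 and SOX11) summed to 44.8 and 44.7 TPM in naïve H9 and to 115.8 and 101 in naïve mouse, against 2663 and 2855 in primed H9 and 841 and 862 in EpiLCs. The general pluripotency factors POU5F1, SOX2, NANOG and SALL4 summed to 1418 and 1412 TPM in naïve H9 and 4828 and 4701 in naïve mouse.

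Markers of other cell types were present in naïve H9 above their level in naïve mouse ESCs. The 7 fibroblast markers summed to 301 and 286 TPM in naïve H9, to 161 and 162 in primed H9, which were grown without feeders, and to 3.74 and 4.20 in naïve mouse, where COL1A2, COL3A1, LUM, DCN and POSTN had at most 1 count in each library. Of the 7, PDGFRB was lower in naïve H9 than in naïve mouse. Against primed H9 the longer fibroblast list went the other way. Its 29 matched genes summed to 713 and 733 TPM in naïve H9 and to 1436 and 1477 in primed H9. In naïve H9 all 7 were above the 3 counts taken as the floor, with COL1A1, COL1A2 and COL3A1 over 10 TPM. Trophoblast markers (GATA3, CDX2, KRT7 and CGA) summed to 789 and 1273 TPM in naïve H9 and to 16.8 and 15.7 in naïve mouse, and hypoblast markers (GATA4, GATA6, SOX17 and PDGFRA) to 53.3 and 68.9 and to 2.53 and 2.75. What these cells or transcripts contribute to the differences below was not tested, and in bulk libraries more cells of a type and more RNA per cell cannot be told apart.

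The levels of the matched genes followed each other across species, though less closely than between states within a species. Spearman's rho across the 15225 genes was 0.749 between the group means and 0.744 to 0.750 in the 4 pairs of a human and a mouse library, against 0.993 between the naïve H9 replicates and 0.991 between the naïve mouse replicates. It was 0.858 between naïve and primed H9, 0.928 between naïve mouse ESCs and EpiLCs, and 0.756 between the primed groups of the 2 species. Across states and species it was 0.755 between naïve H9 and EpiLCs and 0.726 between primed H9 and naïve mouse ESCs, so by this measure naïve H9 was no closer to naïve mouse ESCs than to EpiLCs. These are descriptions across genes, which are not independent replicates. Among genes at 1 TPM or more in all 4 libraries rho was 0.586.

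At least 1 TPM in both libraries was reached by 10914 genes in naïve H9 and 10575 in naïve mouse ESCs. The 9482 genes on both lists made up 86.9% of the human list and 89.7% of the mouse list. At 100 TPM the lists held 1682 and 2106 genes, and the 1028 on both were 61.1% and 48.8% of them. Of the 100 genes of highest mean TPM in each species, 35 were in both sets, and ribosomal protein genes took 36 places in naïve H9 and 16 in naïve mouse. Ranked within each library, 2969 genes lay within 5 percentile points of each other in all 4 pairs of libraries. A rank more than 50 points higher in naïve H9 in all pairs was found for 206 genes, and more than 50 points higher in naïve mouse for 180.

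**Figure D1:**
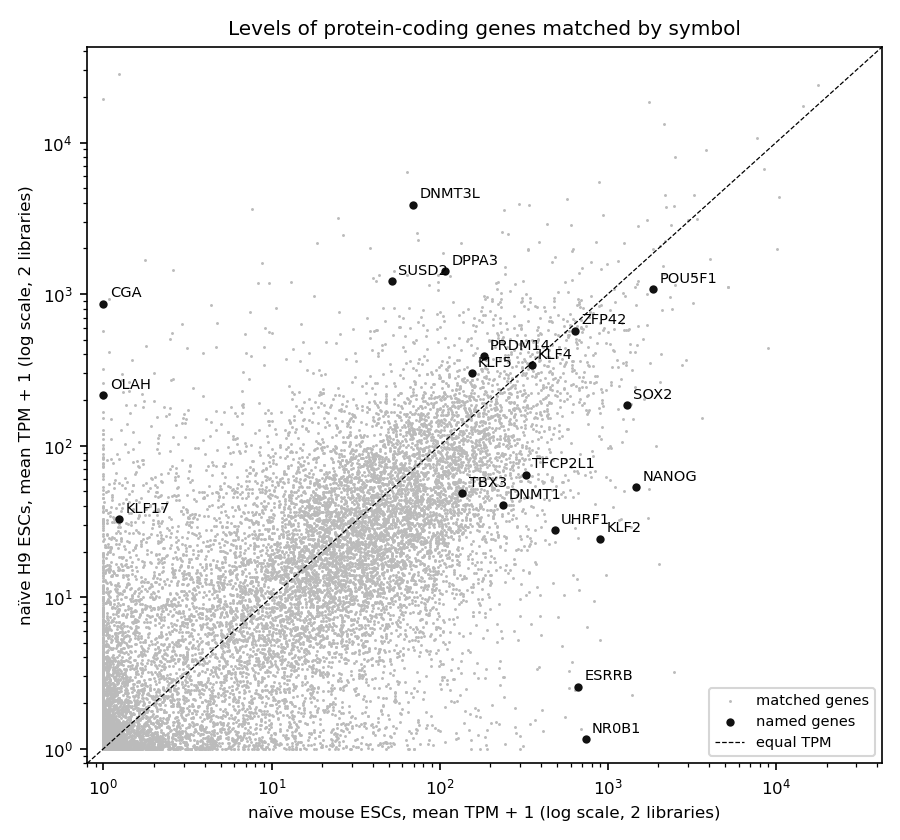
Mean TPM + 1 of each matched gene in naïve mouse ESCs (horizontal, log scale) and naïve H9 ESCs (vertical, log scale), with 2 libraries per group. Black points are named genes and the dashed line marks equal TPM. DNMT3L, DPPA3, SUSD2, OLAH and CGA lie above the line, NR0B1, ESRRB, NANOG, KLF2 and UHRF1 lie below it, and KLF4 and ZFP42 lie near it.

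How completely a gene can be counted differed between the 2 genomes, and moved with the difference between species. Counting by featureCounts at its default settings leaves out reads with several alignments and reads over exons of more than 1 gene, so the share of each gene's 50-base exonic windows with another exact copy in the genome, and the share of its exonic bases that are also exons of another annotated gene, were measured in both species. The study sequenced pairs of 50-base or longer reads, and its methods do not say which libraries had which. A pair over a copied window can still align once, so these shares are not the share of reads left out. Where such sequence exceeded 10% in neither species, 33.9% of 8669 genes were called higher in naïve H9 and 26.2% higher in naïve mouse. Where it exceeded 10% in human alone, the shares were 25.8% and 38.8% of 2119 genes, and where it did so in mouse alone, 41.9% and 20.4% of 1914 genes. The median differences of these 3 classes were 0.23, -0.42 and 0.69. Copied or shared sequence is given below beside each gene where it exceeded 10% in the species with the lower level, and its part in any single difference was not tested. Genes under 10% on every measure and with lengths within 1.5 times of each other, 5359 of those tested, are called fully countable here. Among them 1910 were higher in naïve H9 and 1188 higher in naïve mouse when fitted alone.

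**Figure D2:**
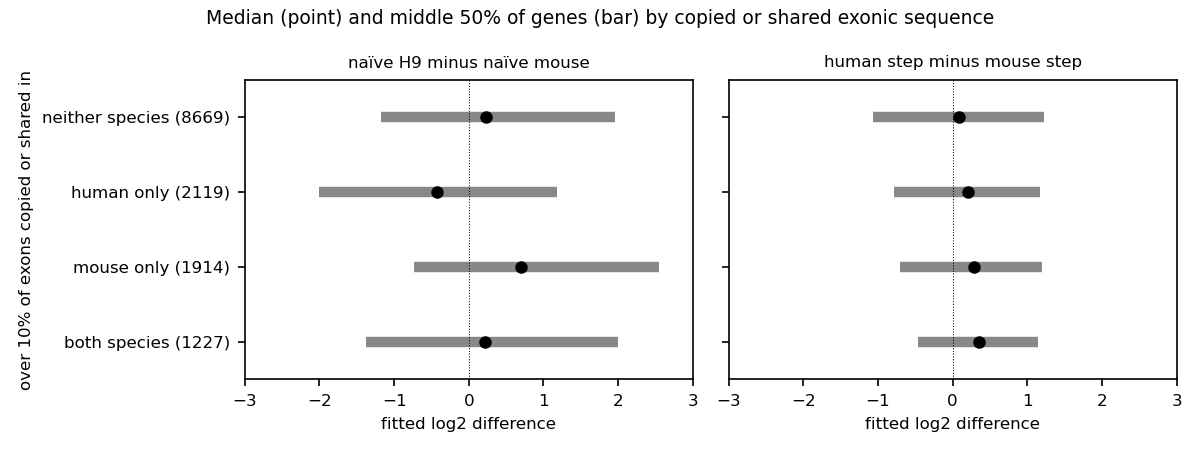
Median (point) and middle 50% of genes (bar) of the fitted log2 difference, for genes grouped by whether over 10% of their exonic sequence is copied elsewhere or shared with another gene, with the number of genes in brackets. On the left, naïve H9 minus naïve mouse, the median runs from -0.42 for sequence shared in human only to 0.69 for sequence shared in mouse only. On the right, the naïve-to-primed difference in human minus that in mouse, the 4 medians lie between 0.083 and 0.36.

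The largest differences were taken among genes over 50 TPM in the higher group with more than 3 counts in each library of the lower group. They ran from 8.50 to 10.16 on the human side and from -8.59 to -10.07 on the mouse side. Several of them, with the 10.16 of CCDC167, fell on genes that one genome does not count completely. Higher in naïve H9, among genes over 50 TPM there with more than 3 counts in each mouse library, the leading genes with under 15% of their mouse sequence copied or shared were SEPTIN2, a filament-forming GTPase, TNFSF9, the ligand of the costimulatory receptor 4-1BB, KLRG2, the actin-bundling protein gene LCP1, the transcription factor SOX4, the receptor phosphatase PTPRU and C2CD4C. SEPTIN2 stood at 195 and 176 TPM in naïve H9 and 0.321 and 0.401 in naïve mouse, a difference of 9.31, with 7.67% of its mouse windows copied. TNFSF9 stood at 577 and 690 TPM in naïve H9 and at 2.38 and 1.49 in naïve mouse, a difference of 8.77 ± 0.21 (SE), adjusted p = 1.46e-33, with 14.9% of its mouse exons shared with another gene. KLRG2 stood at 517 and 583 TPM against 1.35 and 1.78, LCP1 at 556 and 452 against 1.29 and 1.72, and PTPRU at 299 and 305 against 1.15 and 0.855. The mouse libraries were thus within 3 TPM for TNFSF9, KLRG2, LCP1 and PTPRU. SOX4 was at 210.4 and 227 TPM in naïve H9 and 0.748 and 0.667 in naïve mouse, but at 388 and 418 in primed H9 and 60.4 and 61.8 in EpiLCs. The remaining 3 of the 10 leading genes were CCDC167, SLIRP and ACTG1, differing by 10.16, 9.55 and 9.402. In mouse 51.3% of CCDC167 and 97.8% of SLIRP exonic bases were shared with another gene, 64.7% of ACTG1 windows, those of cytoplasmic gamma actin, had another copy, and the gene model of CCDC167 was 572 bases long in human and 12030 in mouse.

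Higher in naïve mouse ESCs by the same rule were the F-box gene FBXO15, JAM2, a junctional adhesion molecule, RPS6KA6, a kinase of the RSK family, and KLHL13, an adaptor of a ubiquitin ligase. FBXO15 stood at 311 and 287 TPM in naïve mouse and 0.25005 and 0.168 in naïve H9, a difference of -10.07 ± 0.199 (SE), adjusted p = 1.85e-36, and JAM2 at 188 and 182 against 0.229 and 0.175. The 2 H9 libraries lay below 1 TPM for each of these 4 genes, and none of them had 10% or more of its human exonic sequence copied or shared. Named by the same rule were also AMT, ASNS, CDC42, PSMA2 and DYNLRB1, for which 62.6%, 49.3%, 15.2%, 29.7% and 26.1% of human exonic bases were shared with another gene. ASNS, asparagine synthetase, stood at 2510 and 2465 TPM in naïve mouse and at 1.91 and 2.47 in naïve H9.

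Some genes were high in one species and at or under 3 counts per library in the other, which was the floor set for a count of 0. In naïve H9, CGA, the alpha subunit shared by the glycoprotein hormones, reached 628 and 1099.8 TPM and was at 0 in both mouse libraries, at least 660.3-fold higher, with 31.97% of its mouse exonic bases shared with another gene. RRAD, a small GTPase of the RGK group, stood at 522 and 618 TPM and was at 0 in mouse, at least 719.95-fold higher. OLAH, a thioesterase that releases medium-chain fatty acids, was at 224 and 206 TPM, CDA, cytidine deaminase, at 318 and 317, and NMRK2, a nicotinamide riboside kinase, at 234 and 282, with 0 in both mouse libraries and bounds of at least 305-fold, 263-fold and 383-fold. Bounds and ratios of such low counts cover counting error only. FAM151A, RBM42 and BRMS1 also ranked here, but 65.7%, 75.4% and 79.03% of their mouse exons were shared with another gene. MT-CO2 and MT-CO3, subunits of cytochrome c oxidase, were at 29747 and 27185 and at 20671 and 17804 TPM in naïve H9, while every window of the mouse genes had another copy in the mouse genome and their mouse values were at most 1 count.

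On the mouse side the highest was NR0B1 (DAX1), an orphan nuclear receptor of the naïve network, at 733 and 739 TPM against 0.0975 and 0.209 in naïve H9. The human gene is at chrX:30304206-30309390 (GRCh38) and the mouse gene at chrX:85235338-85239554 (GRCm39), with no copied or shared exonic sequence in either. The ratio of the 2 species, with 1 to 3 counts in H9, was 4864 (95% counting interval 1664 to 23590). GPA33, a cell surface glycoprotein, was at 305 and 323 TPM against 0 and 0.0708, and PLA2G1B, a secreted phospholipase, at 338 and 264 with 0 in both H9 libraries, at least 311-fold higher. FMR1NB stood at 273 and 292 TPM against 0.171 and 0.366. GTSF1L, at 181 and 202 TPM, and FETUB, a fetuin at 167 and 178 TPM, were at 0 in H9 and higher in mouse by at least 265-fold and 576-fold. ARL14EPL was at 201 and 175 TPM against 0 and 0.109. The amino acid transporter SLC38A4 reached 152 and 152 TPM in naïve mouse and was at 0 in both naïve H9 libraries, at least 1041-fold higher, while primed H9 held 22.2 and 22.1 TPM. CFP and MRPL53 belonged to this set as well, with 48.98% and 99.4% of human exonic bases shared with another gene. In all, 810 genes at 1 TPM or more in both H9 libraries were at or under the floor in both mouse libraries, and 320 the other way round. The floor of 3 counts lay higher in TPM in the less deeply sequenced mouse libraries, as for NR0B1 with 0.30 in naïve H9 and 0.69 in naïve mouse, which favours the first of these counts.

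Of the core pluripotency genes, the factors NANOG and SOX2 were lower in naïve H9 while POU5F1 differed by less than the threshold. NANOG stood at 52.7 and 52.2 TPM in naïve H9 and 1504 and 1449 in naïve mouse, a difference of -4.45 ± 0.104 (SE), adjusted p = 2.06e-33. Its gene model was 5392 bases long in human and 2242 in mouse. SOX2 was at 176 and 194 TPM against 1328 and 1268, a difference of -2.45 ± 0.095 (SE), adjusted p = 5.35e-26. POU5F1 was not called, with 1088 and 1078 TPM in naïve H9, 1855 and 1858 TPM in naïve mouse and a difference of -0.42 (95% interval -0.58 to -0.25). In human 39.6% of NANOG windows and 37.04% of POU5F1 windows had another exact copy, where SOX2 had 4.04%, and in mouse 59.9% of SOX2 exonic bases were shared with another gene. Over the 13 genes tested, 3 were higher in naïve H9 and 4 lower, and only 4 of the 13 were fully countable, of which 1 was lower.

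Higher in naïve H9 were LIN28A, an RNA-binding protein that blocks let-7 maturation, at 392 and 392 TPM against 78.6 and 79.98, DPPA4 at 211 and 198 against 94.3 and 88.5, and GDF3, a TGF-beta family ligand, at 880.5 and 719.9 against 326 and 340. In the mouse genome 42.9% of DPPA4 windows had another copy. The GDF3 difference of 1.62 ± 0.101 (SE) was 0.43 without a correction for gene length and then no longer called. Beside NANOG and SOX2, the genes higher in naïve mouse were L1TD1, at 1093 and 997 TPM against 255 and 271, and the forkhead factor FOXD3, at 80.7 and 84.1 against 7.82 and 13.9, with 24.1% of its human exonic bases shared with another gene. The remaining members were not called. ZFP42 (REX1) stood at 580.4 and 564 TPM in naïve H9 and 622 and 647 in naïve mouse, SALL4 at 102 and 88.2 and 141 and 126, and TRIM71 at 83.4 and 82.2 and 66.8 and 58.6. UTF1 was at 516 and 818 TPM in naïve H9 and at 439.7 and 472 in naïve mouse, with a difference of 0.91 (95% interval 0.64 to 1.18) that was 1.18 and called without replicate 1 of naïve H9. DPPA2, at 124 and 107 TPM against 87.1 and 65.4, fell just short of the call with 0.98 (95% interval 0.73 to 1.22), and took the value -0.062 without a length correction.

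**Figure D3:**
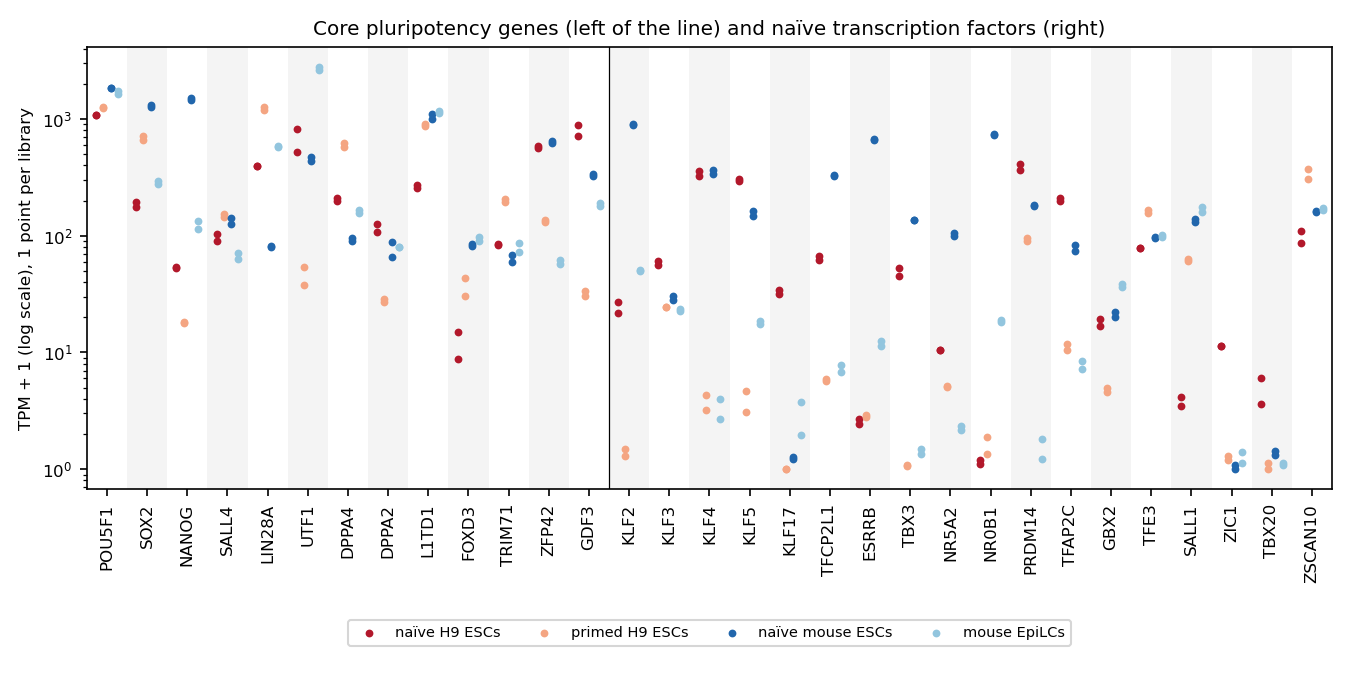
TPM + 1 (log scale) of core pluripotency genes and naïve transcription factors in each of 8 libraries, 1 point per library, coloured by group. The points of a group nearly coincide for most genes. ESRRB, NR0B1, SALL1 and NANOG are far higher in naïve mouse than in naïve H9, KLF17 and ZIC1 far lower, and KLF4 and ZFP42 stand at like levels in both naïve groups and lower in both primed groups.

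Of 18 naïve transcription factors, 7 were higher in naïve H9 and 7 higher in naïve mouse ESCs, beside 33.9% and 27.6% of all genes tested. Of the 11 fully countable ones, 4 were higher in naïve H9 and 6 higher in naïve mouse, with a median of -1.15 against 0.09 for all 18. The nuclear receptors were all on the mouse side. ESRRB, at chr14:76310712-76501837 in GRCh38 and chr12:86407887-86568409 in GRCm39, stood at 673 and 659.5 TPM in naïve mouse and 1.44 and 1.69 in naïve H9, a difference of -8.37 ± 0.15 (SE), adjusted p = 1.41e-37, and its level in primed H9 was 1.78 and 1.91. NR5A2, an orphan nuclear receptor that can stand in for OCT4 in reprogramming, was at 105 and 98.5 TPM against 9.52 and 9.49, a difference of -3.06 ± 0.12 (SE). NR0B1, described above, differed most.

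KLF2, a Krüppel-like factor, stood at 893 and 906 TPM in naïve mouse and 20.9 and 25.8 in naïve H9, a difference of -4.91 ± 0.13 (SE), adjusted p = 1.72e-32. TFCP2L1 was at 323 and 327 against 65.8 and 60.9, TBX3 at 136 and 136 against 43.8 and 51.5, and SALL1 at 137 and 129.98 against 3.12 and 2.45. All 4 were thus higher in naïve mouse, the latter 3 with differences of -1.999, -1.15 and -5.22. KLF4 by contrast was not called, at 321 and 357 TPM in naïve H9 and 361 and 339.9 in naïve mouse, with a difference of 0.31 (95% interval 0.11 to 0.51). It fell to 2.21 and 3.29 TPM in primed H9 and 1.68 and 3.02 in EpiLCs.

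On the human side, KLF17, a Krüppel-like factor known from the human pre-implantation epiblast, stood at 33.1 and 30.4 TPM in naïve H9, at 0.213 and 0.267 in naïve mouse and at 0 in both primed H9 libraries. With 1 to 3 counts in the mouse libraries, its ratio was 129 (95% counting interval 44.02 to 627), and 19.8% of its mouse windows had another copy. PRDM14, a repressor that also acts in germ cells, was at 413 and 368 TPM against 183 and 179, a difference of 1.47 ± 0.105 (SE), adjusted p = 1.33e-16. TFAP2C was at 199 and 211 TPM against 81.6 and 73.5, a difference of 1.77 ± 0.11 (SE). KLF5 stood at 294 and 303 TPM against 161 and 147 and KLF3 at 60.2 and 55.5 against 26.9 and 29.3, but their differences of 1.32 and 1.395 were 0.49 and 0.86 with the longest transcript as gene length and then not called. ZIC1, known from neural patterning, was at 10.3 and 10.4 TPM against 0.08999 and 0, and TBX20 at 5.001 and 2.63 against 0.427 and 0.32001, where the call was lost without a length correction at 0.82. The factors GBX2, TFE3 and ZSCAN10 were not called, and TFE3 turned to the mouse side at -1.29 without a length correction and -0.49 with the longest transcript. GBX2 stood at 15.8 and 18.2 TPM in naïve H9 and 21.2 and 19.1 in naïve mouse, TFE3 at 77.7 and 77.9 and 93.99 and 97.2, and ZSCAN10 at 85.7 and 109 and 159 and 163.

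Of 15 naïve surface and marker genes, 8 were higher in naïve H9 and 3 lower, with a median of 2.75, though among the 8 fully countable ones the counts were 3 and 2 and the median -0.11. The largest by level was DNMT3L, described with the DNA methylation genes below. SUSD2, a surface protein by which human naïve cells are sorted, stood at 1164 and 1275 TPM against 52.5 and 49.8, a difference of 4.94 ± 0.11 (SE). DPPA3 (STELLA), a maternal factor, stood at 1482 and 1358 TPM against 114 and 98.99, a difference of 4.104 ± 0.12 (SE), with 24.1% of its mouse and 45.95% of its human windows copied. Higher in naïve mouse were TRPM1, a cation channel, at 35.1 and 38.1 TPM against 0.0262 and 0, and CPT1A, the enzyme that commits fatty acids to mitochondrial oxidation, at 116 and 112 against 28.1 and 27.1, a difference of -1.69 ± 0.101 (SE). FGF4, a marker of naïve mouse cells, was at 345 and 334 TPM in naïve H9 and 409 and 422 in naïve mouse, with 0.068 (95% interval -0.13 to 0.26), and at 1.11 and 2.2003 in primed H9 against 354 and 359.6 in EpiLCs.

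Genes of the primed or formative state were mostly lower in naïve H9, with 14 of 20 lower and 4 higher and a median of -2.70. Among the 11 fully countable ones, 6 were lower and 3 higher, with a median of -1.37. VIM, the intermediate filament vimentin, stood at 434 and 454 TPM in naïve mouse and 20.9 and 21.9 in naïve H9, a difference of -4.02 ± 0.101 (SE), adjusted p = 6.54e-33, with 24.6% of its human exonic bases shared with another gene. The neural and mesenchymal surface protein THY1 was at 2.74 and 3.63 TPM against 0.113 and 0.151, with 12.5% of its human exonic bases shared, and ZIC2, a zinc finger factor, at 91.4 and 73.3 against 5.44 and 6.15. VIM was also higher in naïve mouse than in EpiLCs, which held 65.8 and 58.5 TPM, whereas THY1 was lower than in EpiLCs. The 4 higher in naïve H9 were OTX2, at 22.04 and 21.01 TPM against 9.22 and 10.8, the POU factor POU3F1 (OCT6), at 14.2 and 14.1 against 3.06 and 4.82, SALL2, and DNMT3B. The OTX2 difference of 1.44 was 0.90 without a length correction and then not called, and 14.4% of POU3F1 mouse exonic bases were shared. FGF5, a classic formative marker, stood at 85.1 and 78.3 TPM in EpiLCs and had at most 2 counts in each naïve library of either species and 0 in primed H9. On those few counts it was called lower in naïve H9, at -2.65. Without a length correction the FGF5 difference was -1.69 and not called, and without replicate 2 of naïve H9 it was -1.85.

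The LIF pathway signals through LIFR and IL6ST to JAK kinases and STAT3, with SOCS proteins as feedback inhibitors. Of 20 genes tested, 4 were higher in naïve H9 and 4 lower. SOCS1 stood at 77.3 and 95.7 TPM in naïve H9 and 4.05 and 1.98 in naïve mouse, a difference of 5.296 ± 0.22 (SE), whereas SOCS3, a direct target of STAT3, was at 22.6 and 23.1 against 65.4 and 62.6, a difference of -1.13 ± 0.15 (SE). The largest difference on the mouse side was JAK3, at 46.4 and 51.8 TPM against 0.651 and 0.474. STAT3 itself was not called, at 34.6 and 30.4 TPM in naïve H9 and 41.1 and 41.4 in naïve mouse with a difference of 0.014 (95% interval -0.195 to 0.22).

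Both media held a MEK inhibitor, and the targets and feedback inhibitors of ERK signalling split, with 8 of 23 higher in naïve H9 and 9 lower. ETV5, an ETS factor induced by FGF and ERK, stood at 235 and 243 TPM in naïve mouse and 1.31 and 1.05 in naïve H9, a difference of -7.29 ± 0.14 (SE), adjusted p = 2.11e-36. In primed H9 it stood at 56.9 and 54.8 TPM and in EpiLCs at 252 and 265, so that both mouse states stood above both human states. On the human side were the AP-1 subunits JUNB, at 97.04 and 127 TPM against 11.8 and 14.9, and FOSL1, at 28.96 and 34.5 against 0 and 0.315, with 69.1% of FOSL1 and 10.9% of JUNB mouse exonic bases shared with another gene. Within each species, 16 of the 23 were lower in naïve than in primed H9 and 11 lower in naïve mouse ESCs than in EpiLCs, against backgrounds of 23.4% and 17.4%.

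WNT pathway genes had 11 of 33 higher in each species, near the shares over all genes tested (33.9% in naïve H9 and 27.6% in naïve mouse). Of the 13 fully countable ones, 7 were higher in naïve H9 and 4 lower, with a median of 1.12 against -0.16 for all 33. H9 cells were kept with a tankyrase inhibitor and mouse ESCs with a GSK3 inhibitor, whose part in these levels was not tested. CTNNB1 (beta-catenin) stood at 591 and 607 TPM in naïve mouse and 109.9 and 97.1 in naïve H9, a difference of -2.17 ± 0.087 (SE), adjusted p = 1.41e-25. Its gene model was 11759 bases long in human and 5192 in mouse. NOTUM, a secreted WNT inhibitor and WNT target, was at 143 and 141 TPM against 1.002 and 1.93, a difference of -6.24 ± 0.204 (SE). SP8 went the other way, at 125 and 141 TPM in naïve H9 and 0.787 and 1.05 in naïve mouse, a difference of 7.47 ± 0.19 (SE) on 7 and 15 mouse counts. The WNT target AXIN2 was not called, at 19.3 and 21.9 TPM in naïve H9 and 29.2 and 29.7 in naïve mouse with a difference of -0.16 (95% interval -0.401 to 0.083), and 25.3% of its human exonic bases were shared with another gene.

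NODAL and activin genes had 6 of 19 higher in naïve H9 and 6 lower. Among the 7 fully countable ones, 3 were higher and 0 lower, with a median of 1.01 against -0.35 for all 19. LEFTY2, a secreted NODAL antagonist and target, stood at 1025 and 1024 TPM in naïve mouse and 93.8 and 104 in naïve H9, a difference of -3.01 ± 0.098 (SE), with 22.4% of human and 17.2% of mouse windows copied. PCSK6 (PACE4), a protease that cleaves the NODAL precursor, was at 165 and 156 TPM against 0.84997 and 0.874, with 14.4% of its human exonic bases shared. Its gene model was 21740 bases long in human and 5190 in mouse. GDF3 led the human side by level, and ACVR1C, a receptor, stood at 0.816 and 0.553 TPM with 0 in both mouse libraries, at least 5.097-fold higher.

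BMP genes had 6 of 20 higher in naïve H9 and 5 lower. Their median of 0.42 fell to -0.01 when the 1 member at 0 in both libraries of a species was placed at its bound. ID1, a direct BMP target, stood at 149 and 181 TPM in naïve H9 and 3.97 and 4.41 in naïve mouse, a difference of 5.63 ± 0.21 (SE), with 20.9% of its mouse exonic bases shared with another gene. The receptor BMPR1A was at 60.7 and 55.4 TPM in naïve mouse against 9.65 and 9.78, with 25.7% of its human windows copied. NOG, a secreted BMP antagonist at 0.907 and 0 TPM in naïve mouse and 0 in both H9 libraries, was called lower in naïve H9 on a single mouse library, and the call was lost without that library, without either H9 library and with the 8 naïve and primed libraries fitted alone.

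FGF genes had 6 of 17 higher in naïve H9 and 4 lower, among the 6 fully countable ones 1 and 2. The receptor FGFR3 stood at 278 and 311 TPM in naïve H9 and 0.429 and 0.134 in naïve mouse, a difference of 10.53 ± 0.22 (SE), adjusted p = 1.17e-35, with 13.9% of its mouse exonic bases shared. It had 6 and 3 counts in the naïve mouse libraries, so this SE can understate its error. FGF3 was at 17.6 and 15.96 TPM in naïve mouse and at 0 in both H9 libraries, at least 44.6-fold higher.

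DNA methylation genes differed in opposite directions between the de novo and the maintenance machinery, with 6 of 13 higher in naïve H9 and 5 lower. Among the 6 fully countable ones, 3 were higher and 1, UHRF2, was lower. DNMT3L, a cofactor without catalytic activity that stimulates DNMT3A and DNMT3B, stood at 3793 and 4002 TPM in naïve H9 and 69.6 and 67.99 in naïve mouse, a difference of 6.18 ± 0.11 (SE), adjusted p = 2.53e-36. The gene lies at chr21:44246339-44262216 in GRCh38 and chr10:77877781-77899456 in GRCm39. DNMT3A was at 56.9 and 55.3 TPM against 10.7 and 9.09, a difference of 2.87 ± 0.104 (SE), and DNMT3B at 289 and 264 against 102 and 97.4, a difference of 1.83 ± 0.089 (SE). The de novo enzymes and their cofactor were thus all higher in naïve H9, and none of the 3 had over 10% of its mouse exonic sequence copied or shared.

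The maintenance methyltransferase DNMT1 was lower in naïve H9, at 39.4 and 39.9 TPM against 247 and 225, a difference of -2.21 ± 0.103 (SE), adjusted p = 4.03e-23. UHRF1, which brings DNMT1 to newly replicated DNA, stood at 26.3 and 27.1 TPM against 489 and 473, a difference of -3.81 ± 0.11 (SE), with 41.6% of its human windows copied. In primed H9 UHRF1 stood at 37.5 and 37.2 TPM and in EpiLCs at 274 and 302, so that both mouse states stood above both human states. The naïve-to-primed difference of UHRF1 in human minus that in mouse was -0.78 and not called. Its relative UHRF2, fully countable, was at 4.197 and 3.45 TPM against 25.05 and 27.1, and HELLS, a remodeller needed for methylation of repeats, at 11.1 and 11.7 against 181 and 155. ZFP57, a zinc finger protein that protects imprints, stood at 43.4 and 39.04 TPM against 186 and 180.5, while its partner TRIM28 was not called, at 2124 and 2320 TPM in naïve H9 and 2103 and 2248 in naïve mouse with 0.39 (95% interval 0.201 to 0.58).

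Of the demethylation genes, TET1 was at 94.8 and 76.7 TPM in naïve H9 and 36.8 and 36.03 in naïve mouse, a difference of 1.596 ± 0.11 (SE) that was 0.69 without a length correction and then not called. TET3 stood at 10.1 and 8.53 TPM against 2.03 and 2.78 and TDG, a glycosylase, at 23.8 and 22.4 against 7.34 and 9.05, both higher in naïve H9, with 49.5% of TDG mouse windows copied. TET2 was not called, at 12.5 and 9.91 TPM in naïve H9 and 12.4 and 10.3 in naïve mouse with 0.35 (95% interval 0.083 to 0.61).

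Of 13 genes of Polycomb repressive complex 2, which places the H3K27me3 mark, 9 were lower in naïve H9 and 3 higher, with a median of -1.78 that stayed between -2.20 and -1.74 under the alternatives tried. EPOP, a PRC2 cofactor, stood at 1187 and 1194 TPM in naïve mouse and 32.03 and 31.9 in naïve H9, a difference of -4.86 ± 0.11 (SE), adjusted p = 2.63e-34. The 3 higher were PHF19, PHF1, at 21.7 and 20.6 TPM against 1.03 and 2.02 with 39.3% of its mouse exonic bases shared, and AEBP2, whose difference of 1.65 was 0.23 without a length correction and then not called.

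Of 29 maternal and germline genes, 14 were lower in naïve H9 and 9 higher. Among the 14 fully countable ones, 10 were lower and 2 higher, with a median of -4.05 against -0.87 for all 29. OOEP, a protein of the subcortical maternal complex, stood at 382 and 369.6 TPM in naïve mouse and 83.5 and 84.7 in naïve H9, a difference of -1.799 ± 0.11 (SE), with 31.8% of its human exonic bases shared with another gene. DAZL, a germ cell RNA-binding protein, was at 11.4 and 12.1 TPM in naïve mouse and 0 in both H9 libraries, at least 68.9-fold higher. DPPA3 and BRDT, a testis bromodomain protein at 55.8 and 55.8 TPM against 0.3005 and 0 with 13.5% of its mouse exonic bases shared, led the human side.

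Of 27 imprinted genes, 14 were higher in naïve H9 and 6 lower, with a median of 1.74. The median was 0.43 for the 18 genes with at least 10 counts in each naïve library. Among the 11 fully countable ones it was 0.57, with 5 higher and 3 lower. PHLDA2, a placental growth restrictor, stood at 322 and 403 TPM in naïve H9 and 15.1 and 12.3 in naïve mouse, a difference of 5.11 ± 0.17 (SE), adjusted p = 5.03e-28. IGF2, a fetal growth factor, was at 5.77 and 8.79 TPM with 0 in both mouse libraries, at least 33.4-fold higher, and 64.6% of its mouse exonic bases were shared with another gene. IMPACT was at 251 and 234 TPM in naïve mouse and 13.6 and 14.7 in naïve H9, a difference of -3.74 ± 0.12 (SE), and ASB4 at 0.912 and 1.14 with 0 in both H9 libraries, at least 7.81-fold higher.

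Mitochondrial transcripts took a larger share of naïve H9 libraries, with 4.18% and 3.73% of matched counts against 1.31% and 1.61% in naïve mouse. Of the 8 genes of the mitochondrial genome that were matched, 6 were higher in naïve H9. These included MT-CO2 and MT-CO3, which had at most 1 count in a mouse library and 100% of their mouse windows copied, so that the mouse share of counts lacks both. Not called were MT-CO1, at 25490 and 22207 TPM in naïve H9 and 15302 and 20111 in naïve mouse, and MT-ND1, at 18288 and 16380 and 13670 and 15161. Copies elsewhere in the genome covered 51.7% of human and 51.7% of mouse MT-CO1 windows. MT-ND5, the fully countable one of the 8, stood at 8787 and 7151 TPM in naïve H9 and 2384 and 2649 in naïve mouse, a difference of 2.02 ± 0.105 (SE).

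Nuclear genes of oxidative phosphorylation did not follow, with 19 of 76 higher in naïve H9 and 26 lower. That balance depended on how gene length was set: 33 were higher with the longest transcript as length, and 13 were lower without a length correction, and the median of -0.30 became 0.40 and 0.25. NDUFB7, a complex I subunit, stood at 2233 and 2787 TPM in naïve H9 and 68.9 and 75.2 in naïve mouse, and NDUFAB1, the mitochondrial acyl carrier protein, at 1111 and 1248 against 7.07 and 7.44. Their gene models were 535 and 1548 bases long in human and 4522 and 6883 in mouse. ATP5F1A, the alpha subunit of ATP synthase, was at 2697 and 2811 TPM in naïve mouse against 364 and 315, with lengths of 3135 and 10908 bases, and NDUFA7 at 272 and 289 against 1.12 and 0.5997, with 32.5% of its human exonic bases shared. No more than 7 of the 76 were fully countable, of which 3 were higher in naïve H9.

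Glycolysis and glucose uptake genes had 7 of 27 higher in naïve H9 and 12 lower, among the 6 fully countable ones 2 and 1. ENO1, the broadly expressed enolase, stood at 2902 and 2850.2 TPM in naïve H9 and 589.5 and 623 in naïve mouse, a difference of 2.61 ± 0.092 (SE), with 20.3% of its mouse windows copied. ENO2, the neuronal enolase, was at 194 and 198 TPM against 1.09 and 0.884, a difference of 8.01 ± 0.18 (SE) on 10 and 13 mouse counts, and was fully countable. ALDOA stood at 3546 and 3735 TPM in naïve mouse against 150.1 and 152, with 54.2% of its human exonic bases shared with another gene, and PDK4, a kinase that restrains pyruvate dehydrogenase, at 12.7 and 10.6 against 0.0428 and 0.

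Amino acid and nutrient transport genes had 9 of 29 higher in each species. SLC7A2, a cationic amino acid transporter, stood at 85.04 and 72.9 TPM in naïve H9 and 0.729 and 0.7005 in naïve mouse, a difference of 7.14 ± 0.19 (SE). SLC3A2, the heavy chain of heteromeric transporters, was at 862 and 926 TPM against 472 and 486, a difference of 1.26 ± 0.093 (SE). On the mouse side SLC38A4, given above, differed most and PSAT1, a serine synthesis enzyme at 1078 and 1081 TPM against 429 and 406, was the most abundant, with 12.2% of its human windows copied and a difference of -1.01 ± 0.086 (SE) that was -0.98 without replicate 2 of naïve mouse and then not called.

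Cell cycle genes had 7 of 29 higher in naïve H9 and 8 lower, among the 8 fully countable ones 0 and 1. CCNA1, a germline cyclin, stood at 378 and 354 TPM in naïve H9 and 0.279 and 0.697 in naïve mouse, a difference of 9.72 ± 0.23 (SE), adjusted p = 7.89e-34. CCNB1 was at 521 and 465 TPM against 151 and 136, with 34.4% of its mouse windows copied. CDK4 was at 867 and 909.8 TPM in naïve mouse against 183 and 172, with 44.2% of its human exonic bases shared, and CDKN2A, the locus of the INK4A and ARF inhibitors, at 136 and 166 against 2.904 and 3.76, with 15.3% shared.

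Of 34 adhesion and epithelial genes, 18 were higher in naïve H9 and 8 lower, with a median of 1.52, and 13 and 3 of the 21 fully countable ones. CLDN6, a tight junction claudin, stood at 1572 and 1618 TPM in naïve H9 and 5.36 and 10.2 in naïve mouse, a difference of 7.94 ± 0.15 (SE), adjusted p = 1.44e-37. CDH5 (VE-cadherin) was at 17.5 and 15.04 TPM with 0 in both mouse libraries, at least 54.8-fold higher. FN1, fibronectin, went the other way, at 846 and 837 TPM in naïve mouse and 45.1 and 35.2 in naïve H9, a difference of -4.03 ± 0.104 (SE).

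Trophoblast and hypoblast genes were higher in naïve H9 for 22 of 30 and lower for 2, with a median of 2.91. Besides CGA, the trophoblast factor GATA3 stood at 119.8 and 133 TPM against 3.99 and 3.38, and the hypoblast factor GATA6 at 32.4 and 43.02 against 0.315 and 0.0492. Both naïve H9 libraries lay above both mouse libraries for each of these, and replicate 2 of naïve H9 held more of CGA and GATA6 than replicate 1. The count of 22 was 22 to 23 with each naïve library left out in turn. CDX2, a trophoblast factor of the mouse embryo, was not called, at 16.4 and 17.9 TPM in naïve H9 and 12.7 and 12.2 in naïve mouse with 0.82 (95% interval 0.497 to 1.15), but was called at 1.24 without a length correction. APOE led by level, at 3806 and 5262 TPM against 2164 and 2196 with 20.4% of its mouse exonic bases shared, and EOMES was the largest on the mouse side, at 8.75 and 6.54 TPM against 0.479 and 0.685. With at least 10 counts required in each naïve library, 17 genes of this list were tested and 12 of them called higher in naïve H9, with a median of 2.35.

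Fibroblast markers were higher in naïve H9 for 25 of 29 and lower for 3, with a median of 5.996, or 4.13 with the 10 genes at 0 in both libraries of a species placed at their bounds. COL3A1, a fibrillar collagen, stood at 99.7 and 92.4 TPM in naïve H9 and at 0 in both mouse libraries, at least 755-fold higher, and COL1A1 at 149 and 150.2 against 1.87 and 2.29. In primed H9, grown without feeders, COL1A1 was at 75.9 and 76.02 TPM and COL3A1 at 0.0521 and 0.0349. Summed over the 29 matched genes, the level was 1436 and 1477 TPM in primed H9, above the 713 and 733 in naïve H9. With at least 10 counts required in each naïve library, 7 of the list were tested and 4 of them called higher, with a median of 2.30. The 3 lower were THY1, PDGFRB, at 0.354 and 0.585 TPM against 1.87 and 1.75, and FBLN1, at 58.6 and 59.9 against 145 and 159 with a difference of -1.002 at the edge of the call. The part of feeder cells in these levels was not tested.

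**Figure D4:**
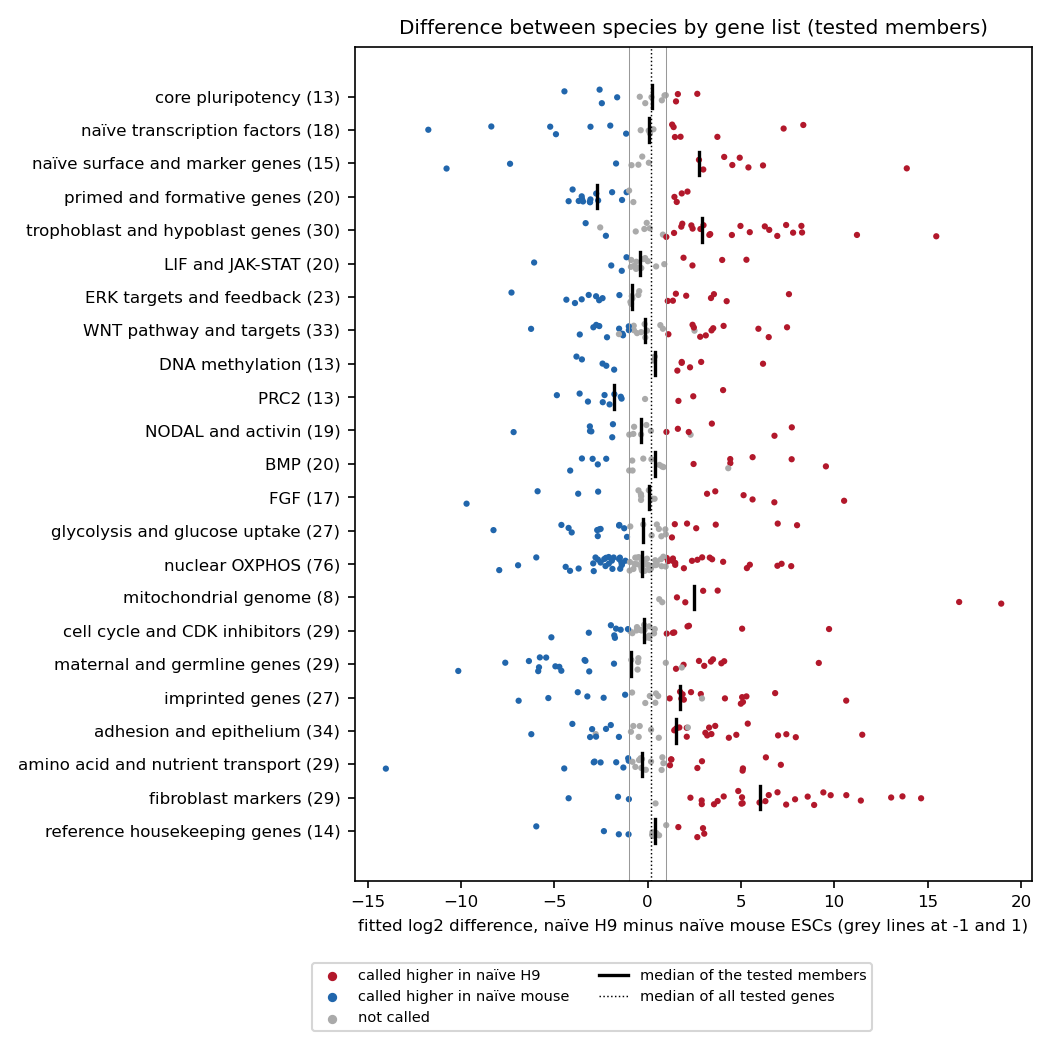
Fitted log2 difference, naïve H9 minus naïve mouse ESCs, of the tested members of 23 gene lists, with the number tested in brackets. Each point is a gene, red where called higher in naïve H9, blue where called higher in naïve mouse and grey where not called, black bars are list medians and the dotted line is the median of all tested genes, 0.20. Primed and formative genes (-2.70) and PRC2 (-1.78) lie to the left, and fibroblast markers (5.996) and trophoblast and hypoblast genes (2.91) to the right.

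Among the 10 genes that ranked highest in all 4 libraries, by their lowest rank, were 4 of the mitochondrial genome (MT-CO1, MT-ND1, MT-ND2 and MT-ND5), the ribosomal protein genes RPL8 and RPS21, the elongation factor EEF2, the chaperone HSP90AB1 and beta-actin (ACTB). EEF2 stood at 6477 and 6947 TPM in naïve H9 and 8214 and 8713 in naïve mouse, with a difference of 0.025 (95% interval -0.16 to 0.22). ACTB was at 2959 and 3265 TPM in naïve H9 and 3487 and 3276 in naïve mouse, with 0.24 (95% interval 0.069 to 0.41). Among genes of at least 50 TPM in both groups and an adjusted p over 0.05, the narrowest intervals belonged to EIF3A, CCT4, CFL1, SAE1 and SRSF7, of translation initiation, protein folding, actin turnover, sumoylation and splicing. EIF3A differed by -0.0078 (95% interval -0.17 to 0.16) and CCT4 by 0.16 (95% interval -0.0086 to 0.33). CFL1 (cofilin) differed by -0.023 (95% interval -0.19 to 0.15), SAE1 by -0.16 (95% interval -0.33 to 0.012) and SRSF7 by 0.15 (95% interval -0.019 to 0.32). All 5 intervals thus lay within 0.5 of 0. The narrow intervals cover the spread between libraries and not the choice of gene length, since without a length correction CFL1 differed by 0.80 and CCT4 by -0.69. Of 14 reference housekeeping genes 4 were higher and 4 lower, among them EMC7, at 261 and 254 TPM against 37.7 and 42.4, whose difference of 3.04 was 0.81 without a length correction, and PSMB2, at 220.2 and 220 against 569 and 576, whose called difference of -1.02 was 0.89 and not called with the longest transcript as length.

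The naïve-to-primed difference asks another question, namely whether the change between states differs between species. Gene length and shared sequence bear on it less, since they are the same in both groups of a species. A gene that differs between species alike in both states does not show in it. EPOP, with -4.86 between the naïve groups, had a difference of steps of -0.22 that was not called. In human, naïve H9 minus primed H9, 2898 genes were higher (20.8%) and 3255 lower (23.4%). In mouse, naïve ESCs minus EpiLCs, 1544 were higher (11.1%) and 2421 lower (17.4%). Of genes called in both, 449 were higher in the naïve state of both species and 1031 lower in both, while 464 were higher in naïve H9 and lower in naïve mouse and 398 the other way round. The difference of the 2 steps, human minus mouse, was called positive for 3181 genes (22.8%) and negative for 2672 (19.2%). This split rested on scaling: with libraries scaled to reference housekeeping genes, which moved the median of all genes from 0.17 to -0.39, it was 2074 and 4006, and with library totals 2721 and 3051. The human step itself went from 2898 higher and 3255 lower to 1779 and 4580 with housekeeping scaling and to 2130 and 4006 with library totals. Where a group is at 0, the size of a fitted step depends on the small count that the fit adds, and such values are no bounds. Primed H9 and EpiLCs also differ in species, line, medium and time in culture.

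Within the naïve transcription factors, 13 of 18 were higher in naïve than in primed H9 and 11 higher in naïve mouse ESCs than in EpiLCs. KLF4 was higher in the naïve state by 7.36 in human and 7.18 in mouse, TFAP2C by 4.84 and 3.57, and TBX3 by 9.73 and 8.31. These 3 factors thus moved the same way in both species. ESRRB was higher in naïve mouse by 6.05, whereas its step in human was 0.27 (-0.22 with housekeeping scaling) and not called, and the steps differed by -5.78 ± 0.26 (SE), adjusted p = 7.61e-23. NR5A2 had steps of 1.74 and 6.404, and PRDM14 of 2.64 and 8.26, the steps differing by -4.66 ± 0.24 (SE) and -5.63 ± 0.299 (SE). NR0B1 was higher in naïve mouse by 5.48 and at 1 TPM or less in every H9 library, naïve or primed.

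SOX2 and UTF1 were called in opposite directions in the 2 species. SOX2 was lower in naïve than in primed H9, at 176 and 194 TPM against 658 and 719, and higher in naïve mouse ESCs than in EpiLCs, at 1328 and 1268 against 295 and 279, with steps of -1.35 and 2.29 and a difference of -3.64 ± 0.13 (SE), adjusted p = 4.54e-26. UTF1 did the reverse, with a step of 4.36 in human and -2.46 in mouse, where EpiLCs reached 2628 and 2782 TPM. NANOG was higher in the naïve state of both, by 2.16 and 3.67, and LIN28A lower in both, with steps of -1.09 and -2.76. The de novo enzymes DNMT3A and DNMT3B were lower in naïve mouse ESCs than in EpiLCs, with steps of -4.48 and -3.67, whereas in human DNMT3A had a step of 0.42 (-0.088 with housekeeping scaling) that was not called and DNMT3B one of -1.28. DNMT3L stood at 3793 and 4002 TPM in naïve H9 and 0 and 0.0635 in primed H9, but at 69.6 and 67.99 in naïve mouse and 469 and 453 in EpiLCs.

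By list, 15 of 20 primed and formative genes had a lower step in human and 4 a higher one, and 18 of 29 maternal and germline genes had a higher step and 6 a lower one. Of the primed and formative genes, 15 were lower in naïve than in primed H9, while 11 were lower and 4 higher in naïve mouse than in EpiLCs. Of the maternal and germline genes, 16 were higher in naïve H9 than in primed H9 and 3 higher in naïve mouse than in EpiLCs. Nuclear oxidative phosphorylation genes had a higher step in human for 24 of 76 and a lower one for 1, with a median of 0.69, and 37 were higher in naïve than in primed H9, against 2 in mouse. The count of 24 became 10, and the median 0.12, with housekeeping scaling. The 37 went with a median human step of 1.01, at the threshold of the call. Housekeeping scaling moved the median human step of all genes tested from 0.057 to -0.43. In the mitochondrial genome 6 of 8 had a higher step in human, and 7 were higher in naïve than in primed H9.

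**Figure D5:**
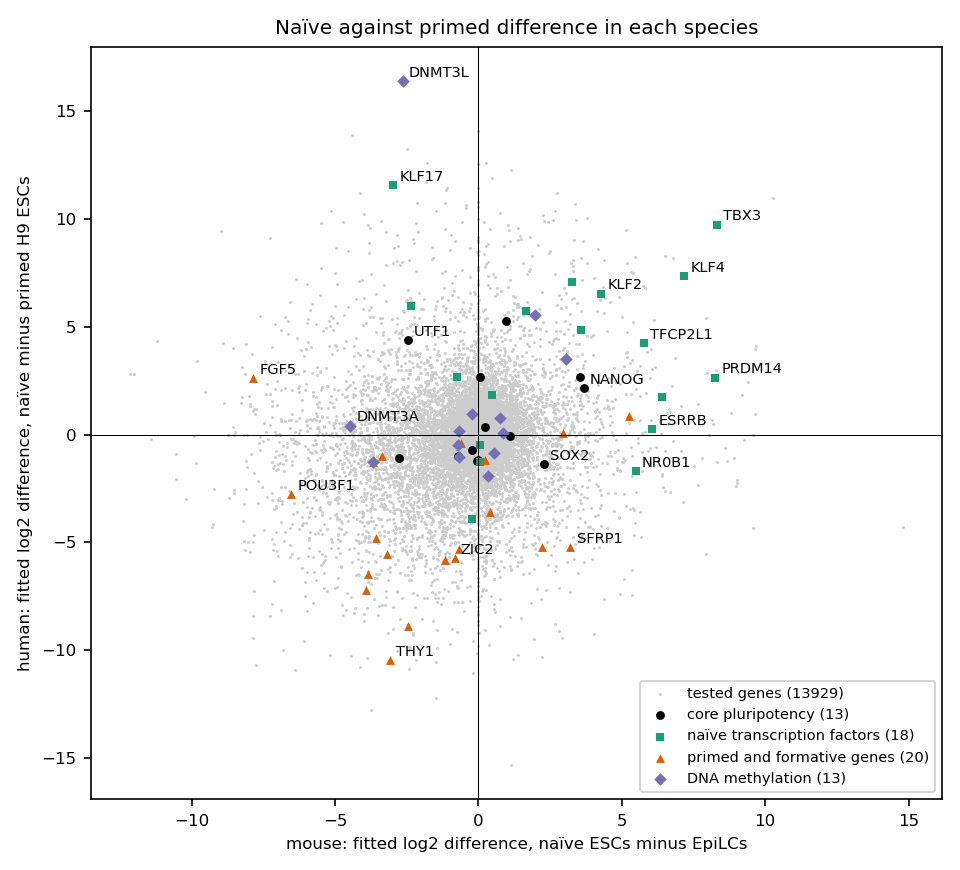
Fitted log2 difference between the naïve and the primed state in mouse (horizontal, naïve ESCs minus EpiLCs) and in human (vertical, naïve minus primed H9 ESCs) for 13929 tested genes, with 4 gene lists in colour. KLF4 and TBX3 lie in the upper right, ESRRB and NR0B1 far to the right near or below the horizontal axis, KLF17 and DNMT3L at the upper left, and ZIC2 and THY1 at the bottom.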

How the data were processed

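Gene counts were analysed as deposited. By the study's methods and the submitters' processing notes, the authors made reads with bcl2fastq 2.20, trimmed them as pairs or single reads with Trimmomatic 0.39 and aligned them with STAR, human libraries against GRCh38 and mouse libraries against GRCm39. The deposited counts are raw featureCounts counts per gene at default settings, beside a gene length over the union of exons. The annotation release was not given in the sources used here, nor the STAR and featureCounts versions. All per-sample columns were mapped, with 0 left over. TPM was computed from counts and length over the matched genes. Protein-coding status and coordinates came from GENCODE 44 and M39. The 18 libraries were fitted together in edgeR 4.0.16 (R 4.3.3) by the quasi-likelihood test, with 1 coefficient per group, the log of gene length and the TMM-scaled library as offset, and genes kept by filterByExpr. DESeq2 1.42.0 was an alternative. The fit was tested on simulated data. Replicate numbers did not pair the samples: deviations of same-numbered libraries correlated at -0.041 to 0.150. The 23 gene lists hold 574 genes, of which 543 were matched.

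The genes matched, the lists and the tests were chosen with earlier results of these data known. A fixed rule named, per list, the called members of largest difference and of highest TPM in each direction, with any member of the core pluripotency, naïve factor and DNA methylation lists. Over all genes it named, in each direction, the 10 largest called differences at 50 TPM or more with over 3 counts in each library of the lower group and no overlap, and the 10 genes of highest TPM with at most 3 counts in each library of the other species. It also named the 10 genes ranking highest in all 4 libraries, the 5 uncalled genes of narrowest interval at 50 TPM or more in both, and the 5 largest called differences of steps in each direction at 20 TPM or more. Outside it, FGF4, FGF5, OTX2, ZIC2, SOX11, SUSD2, NODAL, LIF, LIFR, IL6ST, STAT3, AXIN2, PHF19, SALL2 and the trophoblast, hypoblast and fibroblast markers were named after their values were seen. Copied or shared exonic sequence (50-base windows every 25 bases), the fully countable genes and the scaling and length alternatives for the steps were added after seeing the data. Bounds take 3 counts per library where a group is at 0, and ratios on 1 to 3 counts carry an exact binomial 95% interval of the split of counts, both for counting error only. Y-linked genes were left out of the results per gene, and some genes that the rule names are not reported here.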

Additional observations from a re-analysis of the deposited data

Results flagged for a closer look

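The step from the primed to the naïve state was compared between species as an interaction in edgeR's fit, and the 10 genes of largest difference among those with 20 TPM or more in some group are given here because the tested steps of the 2 species differed. Each value is the human step (naïve minus primed H9) minus the mouse step (naïve mouse ESCs minus EpiLCs) on the log2 scale. Where a group is at 0, the fitted value depends on the small count that the fit adds and is no bound, so the levels stand beside it.

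The step was higher in human for DNMT3L, OLAH, GCM1, TRIM60 and RRAD. DNMT3L, the catalytically inactive partner of the de novo DNA methyltransferases, differed by 19.01, with 3793 and 4002 TPM in naïve H9, 0 and 0.0635 in primed H9, 69.6 and 67.99 in naïve mouse ESCs and 469 and 453 in EpiLCs. OLAH, a thioesterase that releases medium-chain fatty acids, differed by 18.31, with 224 and 206 TPM in naïve H9, 0 in primed H9 and naïve mouse ESCs, and 0.968 and 0.145 in EpiLCs. GCM1, a trophoblast transcription factor, differed by 16.4, with 30.996 and 30.9 TPM in naïve H9, 0 and 0.0849 in primed H9, 0 in both libraries of naïve mouse ESCs and 2.76 and 2.48 in EpiLCs. TRIM60 differed by 15.72, with 104 and 95.9 TPM in naïve H9, 0 in primed H9 and naïve mouse ESCs, and 0.214 and 0 in EpiLCs, and without replicate 1 of EpiLCs its call was lost (13.27, adjusted p = 1). RRAD, a small GTPase, differed by 15.5, with 522 and 618 TPM in naïve H9, 0.4397 and 0.664 in primed H9, 0 in both libraries of naïve mouse ESCs and 1.09 and 0.812 in EpiLCs. All 5 were high in naïve H9 and lower in primed H9, while their mouse levels were lower in naïve ESCs than in at least 1 EpiLC library.

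The step was lower in human for JAM2, PTPRZ1, SLC1A1, STARD8 and CXCL5. JAM2, a junctional adhesion molecule, differed by -19.1, with 0.229 and 0.175 TPM in naïve H9, 5.56 and 6.03 in primed H9, 188 and 182 in naïve mouse ESCs and 0 in EpiLCs. PTPRZ1, a receptor phosphatase, differed by -16.44, with 0 in naïve H9, 149 and 150.1 TPM in primed H9, 0.252 and 0.382 in naïve mouse ESCs and 0.1202 and 0.1797 in EpiLCs. SLC1A1, a glutamate transporter, differed by -13.26, with 0.0489 and 0.0525 TPM in naïve H9, 49.96 and 49.1 in primed H9, 1.36 and 1.39 in naïve mouse ESCs and 0.0691 and 0.09302 in EpiLCs, and 33.2% of its mouse exonic bases lie in exons of another gene. STARD8 differed by -11.79, with 0.175 and 0.0376 TPM in naïve H9, 15.8 and 18.6 in primed H9, 46.8 and 46.3 in naïve mouse ESCs and 1.45 and 1.49 in EpiLCs. CXCL5, a chemokine, differed by -11.6, with 0 in both libraries of naïve H9, 25.4 and 27.7 TPM in primed H9, 0.54999 and 0.343 in naïve mouse ESCs and 0.306 and 0.137 in EpiLCs, and 17.3% of its human and 28.1% of its mouse exonic bases lie in exons of another gene. The largest mouse levels among these 5 were those of JAM2 and STARD8, and PTPRZ1, SLC1A1 and CXCL5 stayed low in both mouse states. Species, cell line and medium differ together between the 2 steps and cannot be told apart, and groups of 2 libraries cannot be tested for an outlying sample.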

How the results depend on the processing

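Named genes kept their direction and call in 3798 values under the alternatives, with 33 calls lost, 18 gained and 40 changes of sign; of the counts per gene list, 1714 stayed within 1.5 times of the value given and 126 did not, 78 of these with fully countable genes alone. For naïve H9 against naïve mouse, at least 10 counts per naïve library left 5638 calls (2721 higher in H9, 2917 lower), fully countable genes 3098 (1910 higher, 1188 lower) and an absolute log2 difference above 2 left 5410 (3143 and 2267), each by testing fewer genes or asking more of them, while DESeq2 gave 4647 higher and 3827 lower. Leaving out 1 library gave 4560 to 4656 higher. For the difference of steps the higher count was 2074 with housekeeping scaling (4006 lower) and 2081 with at least 10 counts, and fully countable genes gave 2385 calls (1234 and 1151). The human step gave 1779 higher with housekeeping scaling, 3568 calls with at least 10 counts (1600 lower) and 2601 with fully countable genes (1084 and 1517), and the mouse step 2123 (959 lower) and 1792 (643 and 1149). Spearman's rho was 0.744 and 0.746 for library 2 of naïve H9 against the mouse libraries, 0.746 to 0.750 with a library left out, 0.586 at 1 TPM or more, 0.778 for counts without length and 0.771 for fully countable genes. With the replicate block the species calls were 4716 higher and 3837 lower and those of the steps 3152 and 2652; among named genes it ended the calls of NOG (adjusted p = 0.0518) and FGF5 (adjusted p = 0.0507), and since the numbers do not pair the samples this says nothing of a weaker effect. Of the genes that changed sign, PSMB2 (-1.02) alone had been called. Calls were lost with 1 library left out for the step difference of TRIM60 (EpiLC library 1, 13.27), FBLN1, PSAT1 and PSMB2 (mouse library 2), FGF5 (either mouse library or H9 library 2), NOG (mouse library 1 or either H9 library) and the human step of NR0B1 (naïve H9 library 1 or primed H9 library 2). The changed signs with housekeeping scaling were CCT4 -0.00853, EEF2 -0.143, FGF4 -0.0995, GBX2 -0.043, SRSF7 -0.016, STAT3 -0.15 and TFE3 -0.11, and in the human step DNMT3A -0.088 and ESRRB -0.22 (-0.027 with library totals, where STAT3 was -0.00728). Without a length correction they were CCT4 -0.69, CFL1 0.80, DPPA2 -0.062, FGF4 -0.16, PSMB2 0.67, SAE1 0.15 and TFE3 -1.29, and with the longest transcript CFL1 1.05, FGF4 -0.29, GBX2 -0.13, PSMB2 0.89, SAE1 0.61, TET2 -0.097 and TFE3 -0.49. Without mitochondrial and ribosomal protein genes EEF2 was -0.022 and STAT3 -0.033, with the 4 naïve libraries alone -0.0174 and -0.029 (-0.0175 and -0.0335 with the replicate block as well), and with only the 8 naïve and primed libraries CFL1 was 0.012 and EIF3A 0.027. With 1 naïve library left out, CFL1 ranged from -0.0746 to 0.0309, EEF2 from -0.0633 to 0.0966, EIF3A from -0.0582 to 0.0246, GBX2 from -0.0172 to 0.196 and STAT3 from -0.102 to 0.0656. Apart from housekeeping scaling and gene length, whose construction shows what they change, the cause was not tested. Depth limits genes near 3 counts, whose direction rests on few reads.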

Other observations

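Some naïve genes escape a match by symbol and so stand outside every count above. TDGF1 (CRIPTO), a co-receptor of NODAL, is named Cripto in mouse, and over all genes of each species it stood at 326 and 332 TPM in naïve H9 and 504 and 528 in primed H9, against 690 and 667 in naïve mouse ESCs and 1040 and 1033 in EpiLCs. It was thus at a lower level in the naïve than in the primed libraries of both species. ALPP, a placental alkaline phosphatase, was at 176 and 186 TPM in naïve H9 and at most 0.0722 in primed H9. Dppa5a was at 8305 and 8313 TPM in naïve mouse ESCs and 3927 and 3868 in EpiLCs, and DPPA5 was at 6.99 and 4.56 TPM in primed H9. These levels were not tested.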
